A study of Mus musculus with 2 samples.

Results

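The genes of glucose metabolism were examined in primordial germ cells (PGCs), the embryonic precursors of eggs and sperm, after over-expression (OE) of the transcription factor Klf9. The set comprised 38 genes of glucose uptake, glycolysis, lactate export, pyruvate dehydrogenase control and the pentose phosphate pathway, together with Hif1a and its targets Vegfa and Bnip3. Members were found by an exact match of the gene symbol in both expression files, with rows of the same symbol summed. This found 36 of the 38 among 23320 named genes, of which 18742 were above 0 in at least 1 library. The remaining 2 members, Eno1 and Tkt, occurred only in rows whose name holds a second gene, and are described apart from the 36.

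PGCs of E13.5 embryos carrying the Oct4-deltaPE-GFP transgene were sorted, infected at an MOI of 5 with a control lentivirus or a lentivirus carrying Klf9, and kept on gelatin for 1 day. The Klf9 coding region was expressed from a CSII-EF vector in the transduced cells. The labels give a medium with bFGF for both groups, whereas the paper describes this RNA-seq culture without bFGF. Each group was 1 library, so no difference has a replicate check and no test between the conditions was possible. The study used an empty vector or one with mCherry as controls for OE, and the labels do not say which was used here. How many embryos were pooled is not given in the sources used here.

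Glycolysis splits glucose into pyruvate in the cytosol, and lactate dehydrogenase regenerates the NAD that the pathway consumes. Pyruvate dehydrogenase commits pyruvate to the mitochondrion, and the pyruvate dehydrogenase kinases (Pdk) switch that enzyme off. The pentose phosphate pathway branches off after the first step of glycolysis and makes NADPH and ribose phosphate. Many glycolytic genes are known targets of the hypoxia-inducible factors.

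Levels are given as RPKM, which scales reads by transcript length and library size, so that different genes can be compared. Cufflinks, which estimated the levels, attached a 95% interval to each, given here in parentheses. It covers estimation within a library and not the difference between cultures. Intervals of a gene that did not overlap between the libraries are called separate, and only genes with separate intervals are called higher or lower. If the intervals held counting error alone, those of 34 members implied 23.9 to 5869 reads in control and 56.9 to 9974 with Klf9-OE. These numbers restate interval width and are not read depths. Pgam1, at 184 RPKM in control and 188 with Klf9-OE, implied 1823 and 9974 reads. Implied reads of weakly covered genes were even numbers in 88.4% of 1793 cases with Klf9-OE and in 36.3% of 2157 cases in control. Whether this narrows the Klf9-OE intervals was not tested. Klf9 itself measured 2.27 (1.97 to 2.57) RPKM in control and 80.8 (76.97 to 84.5) with Klf9-OE.

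Germ cell identity was checked with 12 markers, all of which were detected. Their summed RPKM was 2008 in control and 1710 with Klf9-OE, and 9 were lower and 1 higher, beside 23.3% and 14.2% of genes with a mean RPKM of at least 10. Of 10 gonad somatic markers, 9 were found, all above 0, with sums of 33.9 and 42.0 and with 4 higher and 1 lower. The 4 endothelial markers, among them Pecam1, which germ cells also express, summed to 19.9 and 30.2 with 2 higher and 1 lower, most of the sum being Pecam1. Macrophage and blood markers, 5 of 7 found, summed to 4.21 and 5.33 with 1 higher. Beside the somatic, endothelial and blood counts, 11.2% of all genes were higher and 14.4% lower. The part of such cells in the differences below was not tested. In bulk RNA, fewer cells of a type and less RNA per cell cannot be told apart.

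Glucose metabolism genes were abundant in these PGCs. The 36 members summed to 2005 RPKM in control and 2139 with Klf9-OE. Their median was 23.6 and 23.1, against 3.85 and 3.81 over all 18742 genes. Pkm, the pyruvate kinase of most tissues, led in control with 419 RPKM and ranked 153 among all genes. It was followed by Gapdh at 275, the pentose phosphate enzyme Taldo1 at 201, Pgam1 at 184 and Gpi1 at 145. Eno2, the enolase of neurons, was lowest of those above 0 at 0.395, and Eno3, the enolase of muscle, was listed at 0.

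**Figure D1:**
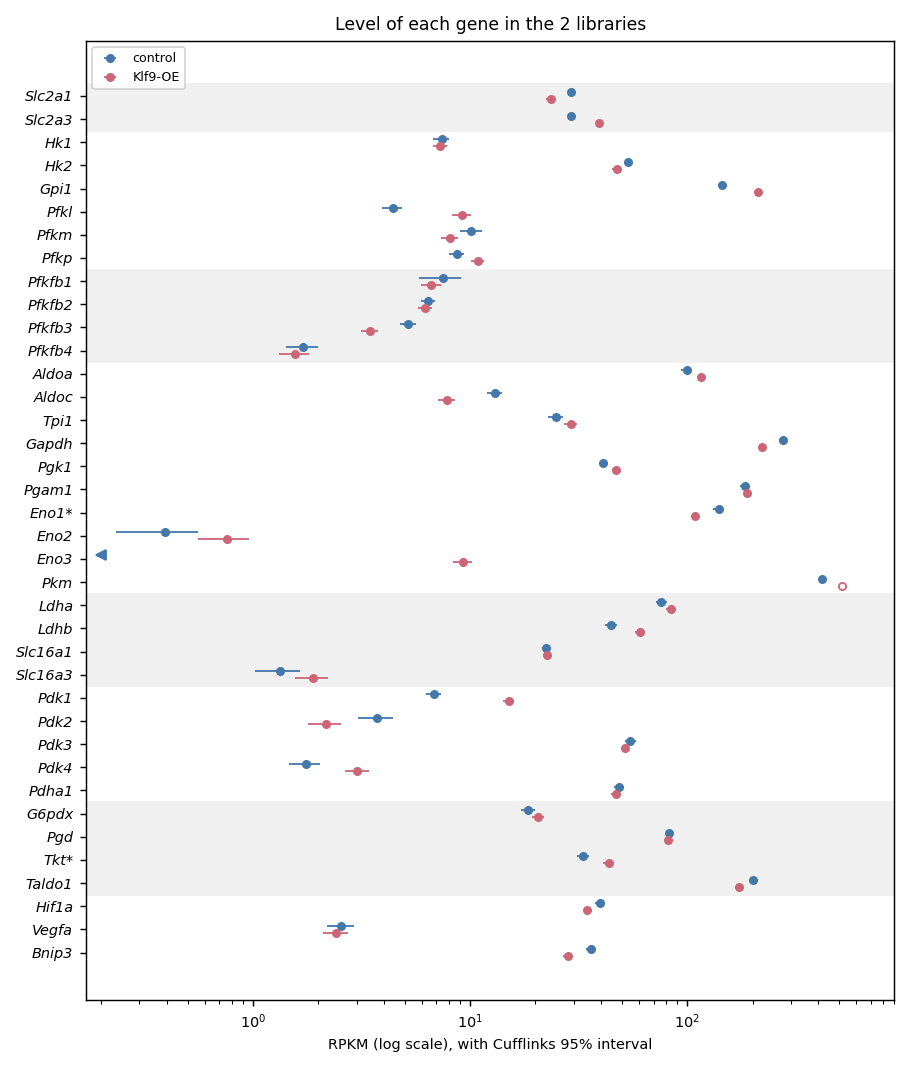
RPKM of the 38 genes on a log scale in the control library and the Klf9-OE library, in pathway order with shading by role, with bars for the Cufflinks 95% interval. The points reach from below 1 for Eno2 to 515 for Pkm with Klf9-OE. Eno3 is marked where it is listed at 0, the open circle is Pkm with Klf9-OE, whose interval (0 to 11788) is not drawn, and asterisks mark the genes found under a joint name.

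The set as a whole did not shift in 1 direction. The log2 fold change, Klf9-OE minus control with 0.1 added to each RPKM, had a median of 0.00032 over the 36 members and -0.015 over all genes. It was above 0 for 18 members and below 0 for 18. Single genes differed in both directions. With separate intervals, 12 members were higher, beside 11.2% of all genes, and 10 were lower, beside 14.4%. Abundant genes have narrow intervals, so the comparison was repeated at a mean RPKM of at least 10. There 7 of 22 members were higher and 7 were lower, beside 14.2% and 23.3% of 6747 genes.

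Members at least 2-fold higher made up 8.33% of the 36, near the share over all genes. With Eno3, listed at 0 in control, counted as higher, 3 of 36 members were at least 2-fold higher, the others being Pfkl and Pdk1, beside 9.82% of all genes counted in the same way. With an RPKM above 0 in both libraries required, these were 2 of 35 members. No member was at least 2-fold lower, beside 9.43%. At 1.5-fold, Eno2 and Pdk4 joined the higher genes to make 5 with Eno3 and 4 without it, beside 16.1%, and 2 members, Aldoc and Pdk2, were lower, beside 15.1%. Pfkfb3 just missed this limit, being 1.499-fold lower. Among the 22 members with a mean RPKM of at least 10, only Pdk1 was at least 2-fold or 1.5-fold higher, beside 1.63% and 3.23% of genes at that level. None was at least 2-fold lower, beside 1.84%, and Aldoc alone was at least 1.5-fold lower, beside 4.83%.

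**Figure D2:**
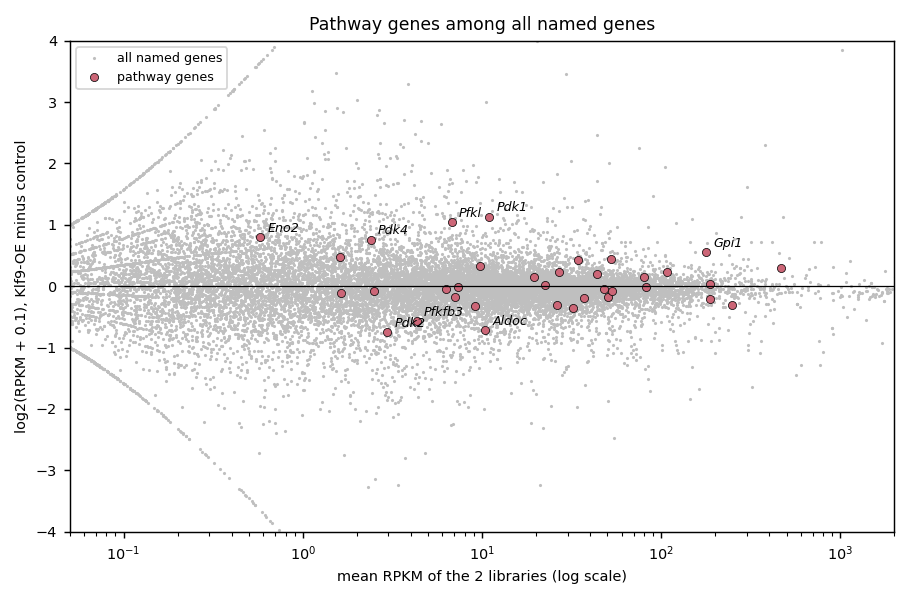
Log2 fold change (y axis, log2 of RPKM plus 0.1, Klf9-OE minus control) against mean RPKM (x axis, log scale) for all named genes in grey and the members in red. Members lie on both sides of 0, with Pdk1 and Pfkl highest and Pdk2 and Aldoc lowest. The y axis is limited, and Eno3, at 6.55, lies outside it.

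Glucose enters cells through facilitative transporters, and the 2 members of this role moved in opposite directions. Slc2a1, the basal transporter, measured 29.1 (27.8 to 30.5) RPKM in control and 23.5 (22.4 to 24.6) with Klf9-OE, a ratio of 0.807 (0.756 to 0.861). For Slc2a3, a transporter of high affinity, the RPKM was 29.1 (28.05 to 30.2) in control and 39.3 (38.2 to 40.4) with Klf9-OE, a ratio of 1.35 (1.29 to 1.41). Both transporters were at the same level in control, where Slc2a3 held 49.98% (48.5% to 51.4%) of their sum, and Slc2a3 held 62.6% (61.3% to 63.9%) with Klf9-OE. The sum itself had a ratio of 1.08 (1.04 to 1.12).

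Among the 6 members of upper glycolysis, where glucose is phosphorylated and prepared for cleavage, Gpi1, Pfkl and Pfkp were higher and Hk2 and Pfkm lower. These are 3 and 2 genes, beside 11.2% and 14.4% of all genes. With both libraries scaled to the same sum, the intervals of Hk2 and Pfkm overlapped. Hk2, the hexokinase typical of proliferating cells, went from 53.5 (51.4 to 55.5) RPKM in control to 47.4 (45.2 to 49.6), a ratio of 0.885 (0.834 to 0.941). The ubiquitous Hk1 stood at 7.39 (6.77 to 8.0001) and 7.28 (6.76 to 7.805) with overlapping intervals, so that Hk2 supplied most hexokinase RNA in both libraries (87.9% and 86.7%). Gpi1, which turns glucose phosphate into fructose phosphate, went from 145 (138 to 151) RPKM in control to 212 (203 to 221), a ratio of 1.47 (1.38 to 1.56). This was the largest ratio among the members above 100 RPKM in both libraries.

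Phosphofructokinase catalyses the committed step of glycolysis, and its isozymes differed in direction. Pfkl, the liver type, went from 4.395 (3.92 to 4.87) RPKM in control to 9.17 (8.29 to 10.1), a ratio of 2.09 (1.81 to 2.41). Pfkp, the platelet type, went from 8.68 (7.999 to 9.36) to 10.9 (10.1 to 11.6), a ratio of 1.25 (1.13 to 1.39), and Pfkm, the muscle type, from 10.1 (8.95 to 11.3) to 8.06 (7.35 to 8.77), a ratio of 0.796 (0.688 to 0.921). All 3 had separate intervals. Those of Pfkm overlapped with both libraries scaled to the same sum, or with Klf9-OE intervals widened by the square root of 2. Pfkl held the smallest share of phosphofructokinase RNA in control, 18.9% (16.95% to 20.9%), and 32.6% (30.2% to 35.1%) with Klf9-OE, whereas Pfkm held 43.6% (40.4% to 46.9%) and then 28.7% (26.5% to 30.8%). The sum had a ratio of 1.21 (1.12 to 1.31). The bounds of the Pfkl locus differed between the files, and the loci of Senp1 and Pitrm1 overlap Pfkm and Pfkp. The use of strand in counting was not stated, so reads of overlapping genes may not be told apart.

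The Pfkfb enzymes make and degrade the sugar bisphosphate that activates phosphofructokinase. Pfkfb3, known for strong kinase activity, was the only one with separate intervals. It went from 5.18 (4.75 to 5.61) RPKM in control to 3.46 (3.13 to 3.78), a ratio of 0.667 (0.588 to 0.756), and its locus bounds also differed between the files. Pfkfb1 stood at 7.47 (5.83 to 9.11) and 6.63 (5.91 to 7.35), Pfkfb2 at 6.42 (5.93 to 6.91) and 6.23 (5.78 to 6.68), and Pfkfb4 at 1.702 (1.42 to 1.98) and 1.56 (1.32 to 1.81). The sum of the 4 genes had a ratio of 0.861 (0.778 to 0.952).

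**Figure D3:**
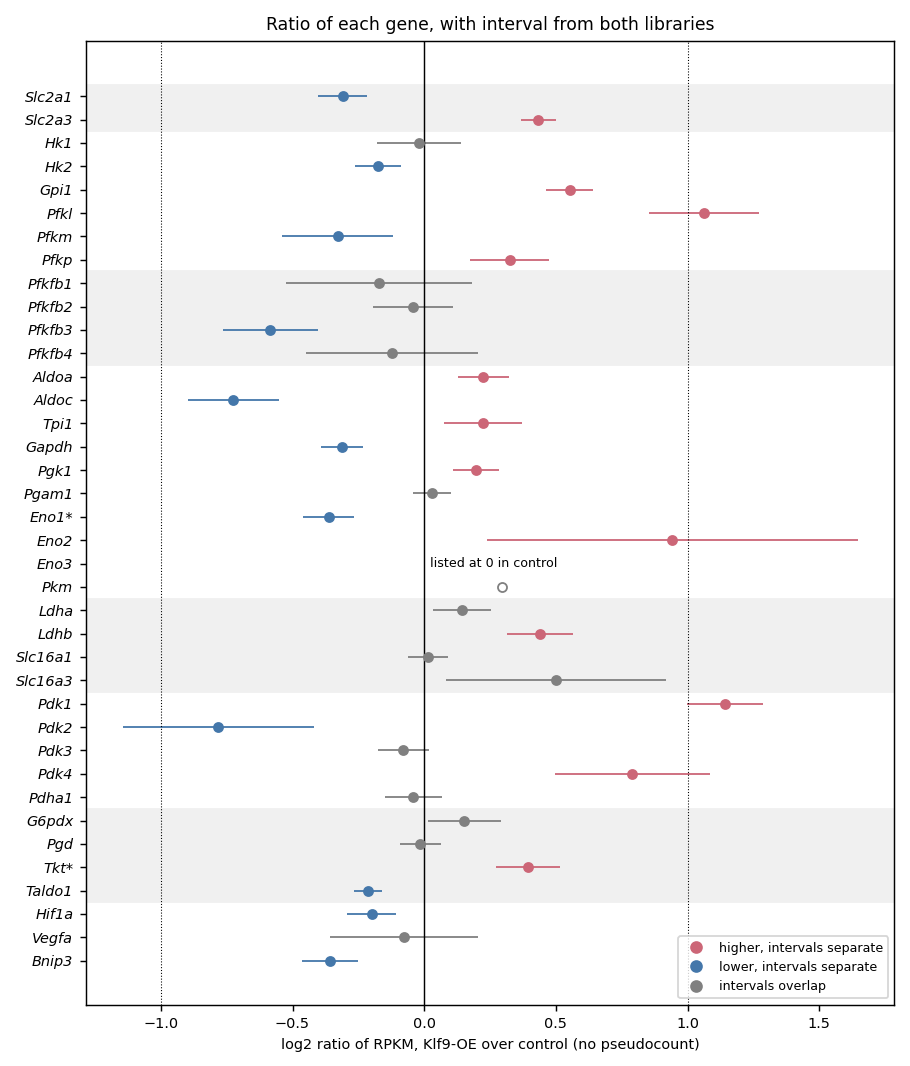
Log2 ratio of RPKM, Klf9-OE over control, for each gene in pathway order, with bars for the ratio's interval obtained from both Cufflinks intervals. Colours separate genes that were higher, lower or overlapping, the open circle is Pkm without its interval, and asterisks mark joint names. Isozymes of the same step, such as Pfkl and Pfkm or Pdk1 and Pdk2, lie on opposite sides of 0.

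In lower glycolysis, which cleaves the sugar and recovers ATP, 5 of 9 members were higher and 2 lower, beside 11.2% and 14.4% of all genes. Most of these members had a mean RPKM of at least 10, a level at which the shares were 14.2% and 23.3%. The 5 include Eno3, listed at 0 in control, and Eno2 and Tpi1, whose intervals overlapped once those of Klf9-OE were widened by the square root of 2. Aldoa, the major aldolase, went from 99.2 (93.96 to 105) RPKM in control to 116 (111 to 121), a ratio of 1.17 (1.09 to 1.25). Aldoc, known as the aldolase of brain, went from 12.96 (11.9 to 13.99) to 7.84 (7.14 to 8.54), a ratio of 0.605 (0.537 to 0.682), the lowest among members with a mean RPKM of at least 10. Its share of aldolase RNA was 11.6% (10.6% to 12.5%) in control and 6.34% (5.76% to 6.92%) with Klf9-OE. In the control file the locus of Spag5 overlaps Aldoc.

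Tpi1, the triose phosphate isomerase, stood at 24.9 (22.9 to 26.8) RPKM in control and 29.02 (27.03 to 31.01) with Klf9-OE, a ratio of 1.17 (1.05 to 1.29). Pgk1, the kinase of the first ATP-forming step, stood at 41.1 (39.1 to 42.98) and 47.04 (45.2 to 48.9), a ratio of 1.15 (1.08 to 1.22). Both were higher by separate intervals. Pgam1, the mutase that follows, stood at 184 (176 to 193) and 188 (184 to 192) with overlapping intervals. For Pkm the values were 419 (405 to 433) and 515, but the Klf9-OE interval of 0 to 11788 gives no usable error. Splice forms of Pkm were not separated here.

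Gapdh, which oxidises glyceraldehyde phosphate, was lower, at 275 (264 to 286) RPKM in control and 222 (213 to 230.1) with Klf9-OE, a ratio of 0.806 (0.762 to 0.852). Its level is uncertain because of near-identical copies. In the GENCODE M21 annotation, 180 other genes had a transcript at least 90% identical to Gapdh in an aligned stretch, 41 of them at least 98%. The closest one in the files, the processed pseudogene Gm12070 (mm10 chromosome 11, 26785108 to 26787859), matched over 1002 nt at 99.9% and stood at 87.3 (84.3 to 90.2) and 49.1 (47.1 to 51.1), a ratio of 0.562 (0.533 to 0.593). Of 9 such genes measured, 7 were pseudogenes or non-coding copies, with ratios between 0.561 and 0.816. Of these 7, 5 were lower by separate intervals, beside 14.4% of all genes, but such rows may share reads and are not independent. The others, Peli2 and Vmn2r60, are separate genes with a transcript that aligns to Gapdh, Peli2 at 6.67 (6.25 to 7.09) and 5.22 (4.82 to 5.62) and Vmn2r60 listed at 0 in control and below 0.1 with Klf9-OE. Gapdh and Gm12070 together gave 362 and 271, a ratio of 0.747.

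Other members also match other genes at 98% identity or more, with 4 such genes for Bnip3, 3 for Pgk1 and 2 for Eno1. Gpi1, Ldhb, Pgam1, Pkm, Pdha1, Pfkfb2 and Pfkp have 1 each, which for Pdha1 and Pfkp is the overlapping Map3k15 or Pitrm1. The values of these members are uncertain to a degree that was not tested. Matches can cover only a part of the transcript, as for Pdha1 with 426 of 2848 nt. The row that Eno1, the ubiquitous enolase, shares with Eno1b (mm10 chromosome 4, 150237197 to 150248873 in the control file) stood at 139.6 (132 to 147) RPKM in control and 109 (104 to 113) with Klf9-OE, a ratio of 0.778 (0.726 to 0.832). A separate row of Eno1b, a copy on another chromosome that matched Eno1 over 1736 nt at 99.5%, stood at 61.8 (59.4 to 64.2) and 36.5 (34.8 to 38.1), a ratio of 0.5899 (0.556 to 0.626). Both rows were lower, and their sum went from 201 to 145. Reads of such copies and of the parent genes cannot be told apart here. Eno2 was higher, at 0.395 (0.234 to 0.557) and 0.759 (0.558 to 0.961), values behind which only 23.9 and 56.9 reads were implied.

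Eno3 was listed at 0 in control and stood at 9.26 (8.32 to 10.2) RPKM with Klf9-OE, so no fold is given. An exact 0 can be a failed estimate. Cufflinks gave a status other than OK to 1 locus in the control file and 5 in the Klf9-OE file. Why Eno3 was listed at 0 was not tested. Of the 8659 genes with at least 5 RPKM in the Klf9-OE library, 89 were at 0 in the control library, and 81 of 8719 were so in reverse. The Eno3 locus (mm10 chromosome 11) began at 70657176 in the control file and further upstream, at 70655936, in the Klf9-OE file, where unnamed loci also overlapped it.

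Lactate dehydrogenase exchanges pyruvate and lactate, and Slc16a proteins carry lactate across the membrane. Ldhb, the subunit prominent in heart, was higher, going from 44.7 (41.8 to 47.7) RPKM in control to 60.6 (57.2 to 64.1), a ratio of 1.36 (1.24 to 1.48). Ldha, the subunit prominent in glycolytic tissue, stood at 76.1 (71.9 to 80.3) and 84.1 (79.7 to 88.5) with overlapping intervals. Ldhb held 37.02% (35.02% to 39.02%) of their sum in control and 41.9% (40.03% to 43.8%) with Klf9-OE, and the sum had a ratio of 1.198 (1.13 to 1.27). Slc16a1, the more abundant carrier, stood at 22.4 (21.5 to 23.3) and 22.6 (21.8 to 23.4), and Slc16a3, the exporter of highly glycolytic cells, at 1.33 (1.02 to 1.64) and 1.88 (1.55 to 2.21). The intervals of both carriers overlapped.

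The kinases that switch off pyruvate dehydrogenase held the largest ratio of the set. Pdk1 (mm10 chromosome 2, 71873224 to 71903858) went from 6.82 (6.28 to 7.36) RPKM in control to 15.04 (14.1 to 15.98), a ratio of 2.21 (1.995 to 2.44). Pdk4, the form linked to fasting and fatty acid use, went from 1.75 (1.47 to 2.03) to 3.03 (2.65 to 3.41), a ratio of 1.73 (1.41 to 2.12). Pdk2 went the other way, from 3.73 (3.05 to 4.41) to 2.17 (1.79 to 2.54), a ratio of 0.582 (0.452 to 0.748), with locus bounds that differed slightly between the files. All 3 had separate intervals, beside 11.2% of all genes higher and 14.4% lower.

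Pdk3, an X-linked kinase, was the most abundant of the family at 54.8 (51.7 to 57.9) RPKM in control and 51.8 (49.95 to 53.7) with Klf9-OE, with overlapping intervals. It held 81.7% (80.3% to 83.1%) of Pdk RNA in control and 71.9% (70.6% to 73.2%) with Klf9-OE, while Pdk1 held 10.2% (9.29% to 11.03%) and then 20.9% (19.7% to 22.05%). The family sum had a ratio of 1.07 (1.01 to 1.14). Pdha1, the catalytic subunit that these kinases phosphorylate, stood at 48.5 (45.9 to 51.1) and 47.2 (44.7 to 49.6), and its locus overlaps Map3k15. A locus named Mir5098 (mm10 chromosome 2, 71414476 to 71893905) overlaps Pdk1 and was listed at 0 in control and at 20.4 with Klf9-OE. How reads were divided between Pdk1 and this locus was not tested.

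**Figure D4:**
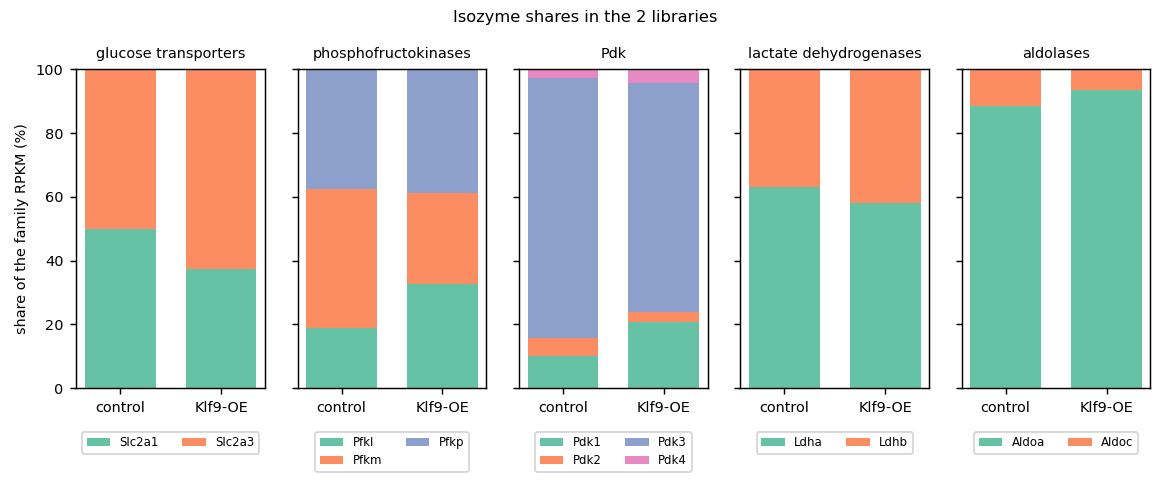
Share of each isozyme in the summed RPKM of its family (y axis, %) in the control library and the Klf9-OE library, for glucose transporters, phosphofructokinases, Pdk, lactate dehydrogenases and aldolases. Slc2a3 goes from 49.98% to 62.6%, Pfkl from 18.9% to 32.6% and Pdk1 from 10.2% to 20.9%.

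Of the 3 pentose phosphate members found by exact name, Taldo1 was lower and the others had overlapping intervals, and the joint row of Tkt was higher. G6pdx, whose enzyme opens the pathway, stood at 18.5 (17.2 to 19.8) RPKM in control and 20.5 (19.2 to 21.9) with Klf9-OE, and Pgd, its other NADPH-forming dehydrogenase, at 82.7 (80.2 to 85.1) and 81.8 (78.1 to 85.5). Intervals overlapped for both. Taldo1, the transaldolase of the non-oxidative branch, was lower, going from 201 (196 to 206) to 173 (169 to 178), a ratio of 0.862 (0.831 to 0.894). The row shared by Tkt, the transketolase of that branch, and the microRNA gene Mir3076 was higher, going from 33.1 (30.996 to 35.2) to 43.5 (41.1 to 45.95), a ratio of 1.32 (1.21 to 1.43).

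Hif1a encodes the oxygen-regulated subunit of the hypoxia-inducible factor, which is known to be controlled mainly through protein stability. Its RNA was lower, going from 39.6 (37.8 to 41.5) RPKM in control to 34.5 (33.1 to 35.98), a ratio of 0.871 (0.817 to 0.928), with locus bounds that differed between the files. Bnip3, a target that acts in mitophagy, was lower as well, going from 36.05 (34.2 to 37.9) to 28.1 (26.6 to 29.6), a ratio of 0.77995 (0.725 to 0.839). Vegfa, an angiogenic target, stood at 2.55 (2.19 to 2.92) and 2.42 (2.097 to 2.74) with overlapping intervals.

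Further hypoxia genes were mixed. Of a list of 33 regulators and targets, which includes Pfkfb3 and Pfkfb4, 31 were above 0, with 5 higher and 7 lower, beside 11.2% and 14.4% of all genes, and a median log2 fold change of -0.024. Ddit4, a stress-induced inhibitor of mTOR signalling, had the lowest ratio of those with separate intervals, going from 54.95 (52.6 to 57.3) RPKM in control to 26.6 (24.8 to 28.5), a ratio of 0.485 (0.447 to 0.526). Ero1l, an oxidase of the endoplasmic reticulum, went from 33.01 (30.3 to 35.7) to 17.3 (16.6 to 17.96), a ratio of 0.523 (0.478 to 0.572). Both genes are also known to respond to stresses other than low oxygen. Epas1, a related factor prominent in endothelium, was higher, going from 3.88 (3.496 to 4.26) to 6.43 (6.05 to 6.82), a ratio of 1.66 (1.48 to 1.86), while the endothelial markers were mixed, with Pecam1 at 16.8 and 24.2, Cdh5 higher at 1.995 and 5.09, Tek lower at 0.735 and 0.439, and Kdr overlapping at 0.367 and 0.465. Their part in the Epas1 value was not tested. Stc2, a secreted glycoprotein, was higher at 0.9599 (0.661 to 1.26) and 1.65 (1.29 to 2.003).

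**Figure D5:**
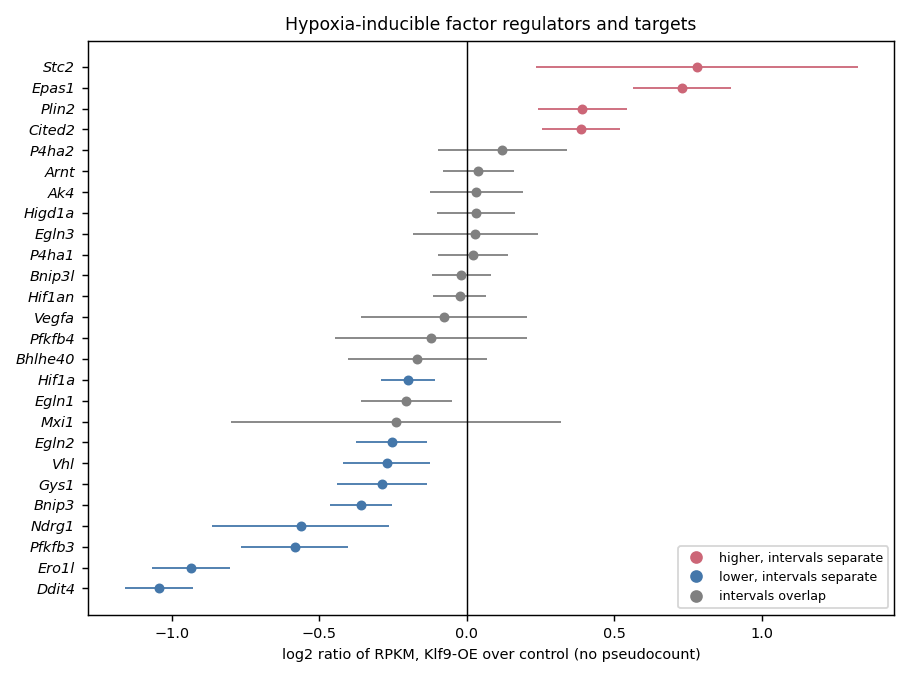
Log2 ratio of RPKM, Klf9-OE over control, for 26 hypoxia-related genes with a mean RPKM of at least 1, Hif1a, Vegfa and Bnip3 included, with bars for the interval of the ratio. Ddit4, Ero1l, Pfkfb3, Ndrg1 and Bnip3 lie lowest and Stc2 and Epas1 highest. Hif3a and Kdm3a, whose intervals were not usable, are left out.

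Among 32 further genes above 0 of glycolysis, gluconeogenesis and sugar phosphate metabolism, 6 were higher and 5 lower, beside 11.2% and 14.4% of all genes, and the median log2 fold change was -0.00090. Pck2, the mitochondrial enzyme that makes phosphoenolpyruvate, had the largest ratio of those with separate intervals, 2.61 (1.89 to 3.599), at 0.864 (0.664 to 1.06) RPKM in control and 2.25 (1.74 to 2.76) with Klf9-OE. Slc2a8, a transporter of internal membranes, stood at 3.48 (2.95 to 4.004) and 5.59 (4.95 to 6.23), a ratio of 1.61. The phosphoglucomutase family split, with Pgm1 at 1.57 (1.22 to 1.91) and 2.66 (2.25 to 3.06), a ratio of 1.697, and Pgm2 at 43.9 (42.2 to 45.6) and 27.8 (26.6 to 29.1), a ratio of 0.634. Pygl, the liver glycogen phosphorylase, stood at 3.01 (2.58 to 3.44) and 1.91 (1.61 to 2.21), a ratio of 0.635.

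Among 16 genes above 0 of the wider pentose phosphate, nucleotide sugar and serine branches, 2 were higher and 4 lower, beside the same background, none of these by 1.5-fold, and the median log2 fold change was -0.059.

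Germ cells carry copies of several glycolytic enzymes that are otherwise known from sperm. Of a list of 11 such paralogs and germ-line-biased genes, 10 were above 0, with Slc2a3 higher, as given above, and Eno4 lower, which is 1 gene in each direction beside 11.2% and 14.4% of all genes. Tktl1, a transketolase-like gene, was the most abundant, at 67.2 (65.1 to 69.3) RPKM in control and 71.8 (68.3 to 75.4) with Klf9-OE, against 33.1 and 43.5 for the Tkt row. Ldhc, the lactate dehydrogenase of testis, stood at 12.02 (10.8 to 13.3) and 10.8 (9.74 to 11.9), and Pdha2, the testis form of Pdha1, at 3.36 (2.88 to 3.85) and 3.85 (3.38 to 4.32). Eno4 went from 3.89 (3.197 to 4.59) to 1.81 (1.499 to 2.13), a ratio of 0.466 (0.363 to 0.598). Pgam2, which is known as the mutase of muscle and is not restricted to germ cells, stood at 0.931 and 0.763. Aldoart1 stood at 0.668 and 0.448, and G6pd2 at 0.723 and 0.693. Aldoart2 and Pgk2 were below 0.1 RPKM in both libraries, and Gapdhs, the sperm form of Gapdh, was listed at 0 in both.

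Of 20 upstream regulators, 4 were higher and 6 lower, beside 11.2% and 14.4% of all genes and 14.2% and 23.3% of those with a mean RPKM of at least 10, with a median log2 fold change of -0.043. Mtor, the kinase that links nutrients to growth, was the only one past 1.5-fold, going from 94.1 (90.6 to 97.6) RPKM in control to 61.3 (58.6 to 64.001), a ratio of 0.652 (0.615 to 0.6903). Myc, an activator of glycolytic genes, stood at 4.14 (3.54 to 4.74) and 4.75 (4.196 to 5.295), and Txnip, an inhibitor of glucose uptake, at 136 (132 to 141) and 128 (124 to 133). Both had overlapping intervals, and both were chosen after their values were seen.

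Promoters were then compared for letters that the members share. RefSeq windows of 300 bases (GRCm38.p6, 250 before to 50 after the start) matched 37 of the 38 genes by symbol. The most upstream window of each gene was searched on both strands. ACGTG is a form of the core of the hypoxia response element and also lies within the E-box CACGTG. The other form of the core, GCGTG, was not counted. ACGTG was present in 16 of 37 members, or 43.2%, beside 19.6% of 27025 promoters. Among 5025 promoters of genes with a mean RPKM of at least 10, the share was 29.3%.

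By direction, with Eno1 and Tkt placed by their joint rows, ACGTG was present in 9 of 11 lower members, 1 of 12 higher members and 6 of 14 with overlapping intervals. The lower ones were Slc2a1, Hk2, Pfkm, Pfkfb3, Aldoc, Gapdh, Pdk2, Hif1a and Bnip3, and the higher one was Pgk1. Among these lower ones, Pfkm, Pdk2, Hif1a and Bnip3 also hold the E-box CACGTG, whereas Pgk1 does not. The median GC content was 64.7% in the lower and 59% in the higher members. Among all genes with a mean RPKM of at least 10, ACGTG was present in 29.1% of 1191 lower and 27.5% of 738 higher genes. With any annotated window of a gene, ACGTG was present in 9 of 11 lower, 2 of 12 higher and 10 of 14 overlapping members, beside 32.9% of promoters of genes at that level. These counts describe letters, and no binding was measured.

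GC boxes and CACCC boxes, letters that Klf and Sp factors are known to bind, were spread over both directions. GGGCGG was present in 7 of 12 higher and 6 of 11 lower members, beside 35.9% of all promoters and 69.8% of those at the higher level. CACCC was present in 8 of 12 higher and 6 of 11 lower members, beside 56.8% and 59.7%. CACGTG was present in 6 of 37 members, beside 7.24% and 12.6%. By direction, these were 4 of 11 lower, 0 of 12 higher and 2 of 14 overlapping members.

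The 250 bases before the start are printed for the 4 members with a mean RPKM of at least 10, separate intervals and the largest change, to show what boxes they hold. Capitals mark the GC box GGGCGG, the box CACCC and the core form ACGTG on either strand. No ACGTG is found in these stretches, and the ACGTG match in Aldoc lies after the start. The other core form, GCGTG, is not marked and occurs in the stretches of Pdk1, Ldhb and Aldoc.
Pdk1, higher, chr2:71872974-71873223, plus strand: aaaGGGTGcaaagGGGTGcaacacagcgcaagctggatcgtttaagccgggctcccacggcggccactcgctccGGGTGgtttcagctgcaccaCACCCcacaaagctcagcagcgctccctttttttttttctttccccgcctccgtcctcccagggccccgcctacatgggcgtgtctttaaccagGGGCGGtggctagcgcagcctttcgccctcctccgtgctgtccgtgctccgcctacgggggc
Gpi1, higher, chr7:34230337-34230586, minus strand: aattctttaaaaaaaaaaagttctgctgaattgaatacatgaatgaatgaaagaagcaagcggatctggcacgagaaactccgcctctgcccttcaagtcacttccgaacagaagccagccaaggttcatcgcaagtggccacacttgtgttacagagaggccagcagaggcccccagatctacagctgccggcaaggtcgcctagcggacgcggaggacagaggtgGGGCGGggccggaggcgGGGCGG
Ldhb, higher, chr6:142507958-142508207, minus strand: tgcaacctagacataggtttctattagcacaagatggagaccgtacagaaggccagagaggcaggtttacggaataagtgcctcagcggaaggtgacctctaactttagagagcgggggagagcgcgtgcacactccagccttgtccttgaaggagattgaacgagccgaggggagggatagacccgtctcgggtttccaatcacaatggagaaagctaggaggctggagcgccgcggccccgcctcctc
Aldoc, lower, chr11:78322823-78323072, plus strand: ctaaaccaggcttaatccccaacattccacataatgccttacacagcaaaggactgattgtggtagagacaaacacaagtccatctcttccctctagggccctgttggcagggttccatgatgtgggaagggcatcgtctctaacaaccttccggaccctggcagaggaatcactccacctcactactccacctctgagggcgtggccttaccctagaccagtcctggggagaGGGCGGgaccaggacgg

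For contrast, the same stretch is printed for Pdk2, Pfkfb3 and Bnip3, lower members that hold ACGTG before the RefSeq start, chosen after their values were seen. In Pdk2 and Bnip3 the letters form CACGTG, with its first base at -126 and -108 from the start, and in Pfkfb3 the match begins at -60. The Pfkfb3 locus reaches 11554016 in the Klf9-OE file and 11554077 in GENCODE M21, beyond the RefSeq start used, so by both of these the match lies within the gene. The Aldoc gene likewise begins at 78322968 in GENCODE M21, inside the stretch printed above.
Pdk2, lower, chr11:95041372-95041621, minus strand: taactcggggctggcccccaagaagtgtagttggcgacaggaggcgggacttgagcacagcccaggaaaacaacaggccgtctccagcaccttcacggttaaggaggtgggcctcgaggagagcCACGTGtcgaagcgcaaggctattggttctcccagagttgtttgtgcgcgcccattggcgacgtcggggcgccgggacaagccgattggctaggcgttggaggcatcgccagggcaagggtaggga
Pfkfb3, lower, chr2:11553930-11554179, minus strand: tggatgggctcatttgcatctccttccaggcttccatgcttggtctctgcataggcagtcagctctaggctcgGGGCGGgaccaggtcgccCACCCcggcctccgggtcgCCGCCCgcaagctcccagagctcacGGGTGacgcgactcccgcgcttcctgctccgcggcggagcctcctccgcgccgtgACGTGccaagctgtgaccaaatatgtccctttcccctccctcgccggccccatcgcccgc
Bnip3, lower, chr7:138909507-138909756, minus strand: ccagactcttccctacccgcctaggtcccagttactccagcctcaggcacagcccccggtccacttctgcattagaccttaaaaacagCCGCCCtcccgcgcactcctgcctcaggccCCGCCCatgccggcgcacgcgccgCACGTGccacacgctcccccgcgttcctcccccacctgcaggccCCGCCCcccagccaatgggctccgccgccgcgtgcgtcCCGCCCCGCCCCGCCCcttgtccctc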

How the data were processed

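RNA-seq of 1 control and 1 Klf9-OE library of E13.5 PGCs was used. Per the paper, single-end reads of 51 bases were aligned to mm10 with TopHat2 and Bowtie. The authors deposited FPKM per locus with 95% bounds, estimated by Cufflinks. With single ends, FPKM and the RPKM named in the paper are the same unit. Tool versions are not given in the sources used here, and library totals were not in the tables. RPKM and bounds were summed over rows of the same symbol, and unnamed loci entered no gene comparison.

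Ratios used no pseudocount. Log2 values had 0.1 added, so that changes of low genes are understated. Intervals of ratios and shares took the distance from each RPKM to its upper bound as 2 SD. Implied reads were obtained from the same distance under Poisson counting and called whole within 0.06. No p-value was computed. Copies of member genes were sought with blastn in GENCODE M21 transcripts. Coordinates are 1-based.

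All members were named. Genes of the wider lists were named if at least 1.5-fold changed with separate intervals and a mean RPKM of at least 1, or if germ-line paralogs. Members and lists were chosen with earlier results of these data known. Alternatives were other pseudocounts, filters, scalings, row choices and wider intervals. The scripts were tested on simulated data. Python 3.11.15, numpy 2.4.6, pandas 2.3.3 and matplotlib 3.10.9 were used.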

Additional observations from a re-analysis of the deposited data

How the results depend on the processing

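No paired analysis was possible because each condition had 1 library, and for the same reason no library could be left out. Under all alternatives run, the median log2 fold change of the members lay between -0.014 and 0.062, and no member with separate intervals turned direction. With both libraries scaled to the same sum, which multiplied Klf9-OE values by 1.04, Hk2 and Pfkm no longer had separate intervals while Ldha and G6pdx did. With Klf9-OE intervals widened by the square root of 2, those of Pfkm, Tpi1 and Eno2 overlapped.

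With a pseudocount of 1, 3 members were at least 1.5-fold higher and 1 lower. Some alternatives were chosen after seeing the data. With only the 29 members of the same locus bounds in both files, or only the 25 that overlap no other locus, 1 member was at least 2-fold higher, 3 were at least 1.5-fold higher and 1 was at least 1.5-fold lower. The former leaves out Pfkl, Eno3 and Pdk2, and the latter Pdk1, Eno3 and Aldoc. With any promoter window of a gene, ACGTG was present in 2 of 12 higher, 9 of 11 lower and 10 of 14 overlapping members. In the wider glycolysis list the median was -0.12 at a mean RPKM of at least 1. With the same sum, 6 genes were higher in the pyruvate list, 5 in the pentose phosphate list and 2 among the germ-line paralogs. That scaling raises the Klf9-OE values of all genes, and the share of all genes higher under it was not computed. The pyruvate list had 1 higher gene with RPKM above 0 in both libraries. Apart from the scaling itself and fewer genes or members, the cause was not tested.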

Other observations

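A wider list covered pyruvate and lactate handling and mitochondrial entry, with membrane carriers, cytosolic enzymes and phosphatases of pyruvate dehydrogenase among its genes. Of these 23 genes, 2 were higher and 1 lower, beside 11.2% and 14.4% of all genes, with a median log2 fold change of 0.054. Dlat, the acetyltransferase of pyruvate dehydrogenase, stood at 31.6 (30.5 to 32.7) RPKM in control and 31.2 (30.2 to 32.2) with Klf9-OE, and Mdh2, the mitochondrial malate dehydrogenase, at 312 (297 to 326) and 324 (309 to 338). Pdp2, a phosphatase that opposes the Pdk kinases, was lower, going from 8.12 (7.53 to 8.71) to 5.81 (5.35 to 6.28), a ratio of 0.716 (0.642 to 0.798), while Pdp1 stood at 17.4 (16.5 to 18.4) and 17.2 (16.3 to 18.01). Me1, the cytosolic malic enzyme, was higher, at 17.3 (16.1 to 18.4) and 20.2 (18.9 to 21.4). Mpc2, a subunit of the mitochondrial pyruvate carrier, was listed at 0 in control and stood at 32.6 (30.1 to 35.1) with Klf9-OE, while its partner Mpc1 stood at 35.2 (32.1 to 38.3) and 37.4 (34.4 to 40.3). All of these except Mpc2 were chosen after their values were seen.

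The 5 X-linked members, Pfkfb1, Pgk1, Pdk3, Pdha1 and G6pdx, had ratios between 0.888 and 1.15. Of these, Pgk1 alone had separate intervals and was higher, beside 11.2% of all genes higher and 14.4% lower. The paper dissected genital ridges of both sexes, and the sex of the embryos behind each library was not examined here. Of 10 listed copies of member genes, 3 were found, and Gm12070 and Eno1b among them were lower, beside 14.4% of all genes.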
